A study of Mus with 14 samples.

Results

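The 9 genes described here (Zfp990, Zfp980, Zfp992, Zfp981, Zfp991, Zfp982, Zfp985, Zfp979 and Zfp534) encode KRAB zinc finger proteins and lie on distal chromosome 4 of the mouse, beside Tnfrsf1b, the gene of the tumour necrosis factor receptor Tnfr2. They were given as a list that had been drawn up from differences in the mice labelled Dnmt3a;Tnfr2KO, so their levels in those mice are given as a description, without a test. The list holds 9 of the 32285 genes in the files, and all 9 were found by symbol. Of the 32285 genes, 15648 passed the filter on low counts and were tested, the 9 among them. Zfp980 and Zfp534 passed through Dnmt3a;Tnfr2KO libraries alone (3 and 4 of those 4 libraries, and 0 of the other 10). Zfp981 reached the filter's CPM cutoff in 4 Dnmt3a;Tnfr2KO libraries and in only 1 of the other 10. The filter asks for 3 libraries, so Zfp981 too was in the test only through Dnmt3a;Tnfr2KO. Zfp990 reached the cutoff in 4 Dnmt3a;Tnfr2KO libraries and in only 3 of the other 10. The remaining 5 reached it in all 14 libraries.

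Single bone marrow cells, sorted as Lin-Kit+ and positive for the donor marker CD45.2, were sequenced from the 3' end of their transcripts in droplets, with 1 library per mouse. The labels give 4 genotypes, namely MxCre in 3 mice, Dnmt3a in 4 mice, Dnmt3a;Tnfr1KO in 3 mice and Dnmt3a;Tnfr2KO in 4 mice. Donor cells of each genotype went, mixed with CD45.1+ competitor marrow, into aged irradiated CD45.1+ mice, which received a single poly(I:C) injection a month later. Marrow from these mice was moved into a second set of aged irradiated hosts, and those were harvested after 20 weeks. MxCre is a recombinase under the interferon-inducible Mx promoter, which poly(I:C) switches on in blood-forming and other cells. The labels name the genotype MxCre only for the control, and give neither the Dnmt3a allele, the sex, nor the strain background of the Tnfr1KO and Tnfr2KO alleles. Which primary host supplied which mouse is not stated either, and p-values measure only the spread between these libraries.

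KRAB zinc finger proteins form the largest family of transcription factors in mammals. Each carries a row of zinc fingers that binds DNA and a KRAB domain that recruits the co-repressor Trim28, which brings in Setdb1 and other enzymes of heterochromatin. Many of them silence retrotransposons, and their genes lie in clusters of near-identical copies that arose by duplication. Zfp979, also known as Ssm1b, is known as a strain-specific modifier of transgene methylation, and Zfp982 has been studied in embryonic stem cells. Roles of the other members are not given here.

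The 9 members span 2.19 Mb. Positions are those of RefSeq for GRCm38, the build that the submitters' processing notes name, and all 9 were matched by symbol. From the Tnfrsf1b side (chromosome 4, 145212368 to 145246870) they run as follows. Zfp990 (ENSMUSG00000078503) lies at 145510759 to 145538251, 263.9 kb from Tnfrsf1b, and Zfp980 (ENSMUSG00000058186) at 145670697 to 145704437, 423.8 kb away. Zfp992 (ENSMUSG00000070605, 146449030 to 146469440) and Zfp981 (ENSMUSG00000056300, 146502000 to 146539395) follow at 1202.2 and 1255.1 kb. Zfp991 (ENSMUSG00000067916, 147132093 to 147180579) is 1885.2 kb away. The distal end holds 4 members in a row, Zfp982 (ENSMUSG00000078496, 147443114 to 147516064), Zfp985 (ENSMUSG00000065999, 147553277 to 147585201), Zfp979 (ENSMUSG00000066000, 147611936 to 147642508) and Zfp534 (ENSMUSG00000062518, 147674225 to 147702631), at 2196.2, 2306.4, 2365.1 and 2427.4 kb. In that annotation 6 of the 9 overlap another gene, among them Zfp981 with Zfp993 and Zfp991 with Zfp978, whereas Zfp990, Zfp985 and Zfp534 overlap none. How reads that match several copies were counted is not given in the sources used here, so counts of these genes are uncertain wherever copies are alike near the 3' end.

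After filtering, 1924 to 7265 cells and 58073326 to 146838777 UMIs (unique molecular identifiers, 1 per captured transcript) were kept per library. Dnmt3a replicate 1 kept 26.5% of its barcodes against 63.2% to 91.6% in the other libraries. No pair of libraries shared more than 15 cell barcodes. Kit (73.3 to 155 CPM, UMI counts scaled to a common library size) and the leukocyte gene Ptprc (73.9 to 141 CPM) were present in every library. Tnfrsf1b stood at 11.8, 16.9 and 12.3 CPM in MxCre, at 13.3, 12.3, 13.9 and 15.4 CPM in Dnmt3a, at 12.96, 10.4 and 16.6 CPM in Dnmt3a;Tnfr1KO and at 4.33, 5.51, 5.05 and 5.48 CPM in Dnmt3a;Tnfr2KO. Over all cells the 4 Dnmt3a;Tnfr2KO libraries were thus all below the other 10 (adjusted p = 0.000569 against Dnmt3a, edgeR quasi-likelihood test). In the erythroid-like cells described further on, the direction of the means was the opposite, with a mean of 3.96 ± 1.04 CPM (SD, n = 4) in Dnmt3a;Tnfr2KO and 2.51 ± 0.922 CPM (n = 10) in the other mice. The values there overlapped, at 3.02 to 5.43 and 1.54 to 4.22 CPM, and rest on 145 and 200 UMIs. Tnfrsf1a, the gene targeted by the Tnfr1KO label, overlapped between the libraries carrying it (33.9 to 42.3 CPM, mean 38.2) and Dnmt3a (32.4 to 52.8 CPM, mean 43.5). The labelled group had the lowest mean of the 4 genotypes without standing apart, so these 3 are called Tnfr1KO-labelled below. Whether 3' counts would show the loss depends on the allele, which the labels do not give. Dnmt3a transcripts stood at 22.5 to 28.2 CPM in MxCre, 28.02 to 33.1 CPM in Dnmt3a, 21.3 to 22.4 CPM in Tnfr1KO-labelled mice and 22.7 to 25.1 CPM in Dnmt3a;Tnfr2KO, so the 3 groups labelled Dnmt3a lay on both sides of MxCre.

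Zfp990, the member nearest to Tnfrsf1b, was close to silent in 10 libraries and expressed in 4. It measured 0.0718, 0.0844 and 0.132 CPM in MxCre, 0.121, 0.226, 0.0643 and 0.0435 CPM in Dnmt3a, and 0.0996, 0.0778 and 0.0524 CPM in Tnfr1KO-labelled mice. In Dnmt3a;Tnfr2KO it measured 12.4, 13.5, 30.7 and 25.3 CPM. The 90 UMIs of the 10 other libraries stand beside 9944 in the 4 Dnmt3a;Tnfr2KO libraries, and the fitted difference from Dnmt3a was 7.57 ± 0.49 on the log2 scale (standard error). Within Dnmt3a;Tnfr2KO, replicates 3 and 4 lay above replicates 1 and 2.

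Its neighbour Zfp980 was rare everywhere, with 86 UMIs in all. In Dnmt3a;Tnfr2KO it stood at 0.251, 0.187, 0.159 and 0.0724 CPM. Single UMIs in 4 libraries and none in 6 others left it at 0 to 0.0169 CPM across MxCre, Dnmt3a and Tnfr1KO-labelled mice. A count of 0 allows up to 0.0289 to 0.0396 CPM in the libraries that had none (3 UMIs of each total). Summed over libraries, the ratio of Dnmt3a;Tnfr2KO to Dnmt3a was 61.0, with an exact 95% interval of 10.7 to 2440 that covers counting error only.

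Zfp992 was expressed in every library. It measured 6.11, 7.77 and 5.53 CPM in MxCre, 11.3, 9.02, 6.15 and 6.35 CPM in Dnmt3a, and 4.57, 4.90 and 5.50 CPM in Tnfr1KO-labelled mice. In Dnmt3a;Tnfr2KO it reached 19.9, 21.0, 22.5 and 16.6 CPM, above all other libraries, with a fitted difference from Dnmt3a of 1.29 ± 0.19 on the log2 scale. Zfp981, 1255.1 kb from Tnfrsf1b, measured 0.769, 0.588, 0.777 and 0.239 CPM in Dnmt3a;Tnfr2KO and 0 to 0.121 CPM elsewhere. The highest of these other values, 0.121 CPM, came from Dnmt3a replicate 1. Its summed ratio to Dnmt3a was 11.8 (exact 95% interval 7.32 to 20.2, counting error only).

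Zfp991 and Zfp982, the middle pair along the chromosome, went the other way. Zfp991 stood at 2.57, 2.42, 2.70 and 1.46 CPM in Dnmt3a;Tnfr2KO, below MxCre (3.57, 4.22 and 4.4998 CPM) and Dnmt3a (5.26, 3.90, 4.34 and 4.24 CPM). Zfp982 stood at 1.64, 1.16, 3.97 and 0.681 CPM in Dnmt3a;Tnfr2KO, below all of MxCre (6.55, 6.55 and 7.61 CPM) and overlapping Dnmt3a (9.11, 7.19, 3.89 and 2.30 CPM). The fitted differences from Dnmt3a were -0.95 ± 0.20 for Zfp991 and -1.60 ± 0.51 for Zfp982 on the log2 scale. For both genes the Tnfr1KO-labelled mice, at 2.23, 2.03 and 2.91 CPM for Zfp991 and 1.08, 2.37 and 1.62 CPM for Zfp982, overlapped with Dnmt3a;Tnfr2KO (log2 differences of -0.06 ± 0.21 and 0.14 ± 0.54).

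The last 3 members were high in Dnmt3a;Tnfr2KO again. Zfp985 measured 4.47, 5.28, 6.41 and 7.13 CPM there, against 1.98, 1.82 and 2.61 CPM in MxCre, 1.1997, 1.96, 0.736 and 0.392 CPM in Dnmt3a, and 0.707, 1.79 and 1.296 CPM in Tnfr1KO-labelled mice. Zfp979 measured 4.68, 4.10, 10.4 and 6.22 CPM, against 1.48, 1.15 and 1.75 CPM in MxCre, 2.37, 1.38, 0.915 and 0.861 CPM in Dnmt3a, and 0.767, 2.92 and 1.71 CPM in Tnfr1KO-labelled mice. Neither gene's Dnmt3a;Tnfr2KO values overlapped with any other group. Zfp534 had 371 UMIs in the 4 Dnmt3a;Tnfr2KO libraries (0.734, 0.575, 0.797 and 0.891 CPM) and 5 in the other 10, none of which exceeded 0.0169 CPM. Its summed ratio to Dnmt3a was 92.1 (exact 95% interval 31.3 to 448, counting error only).

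**Figure D1:**
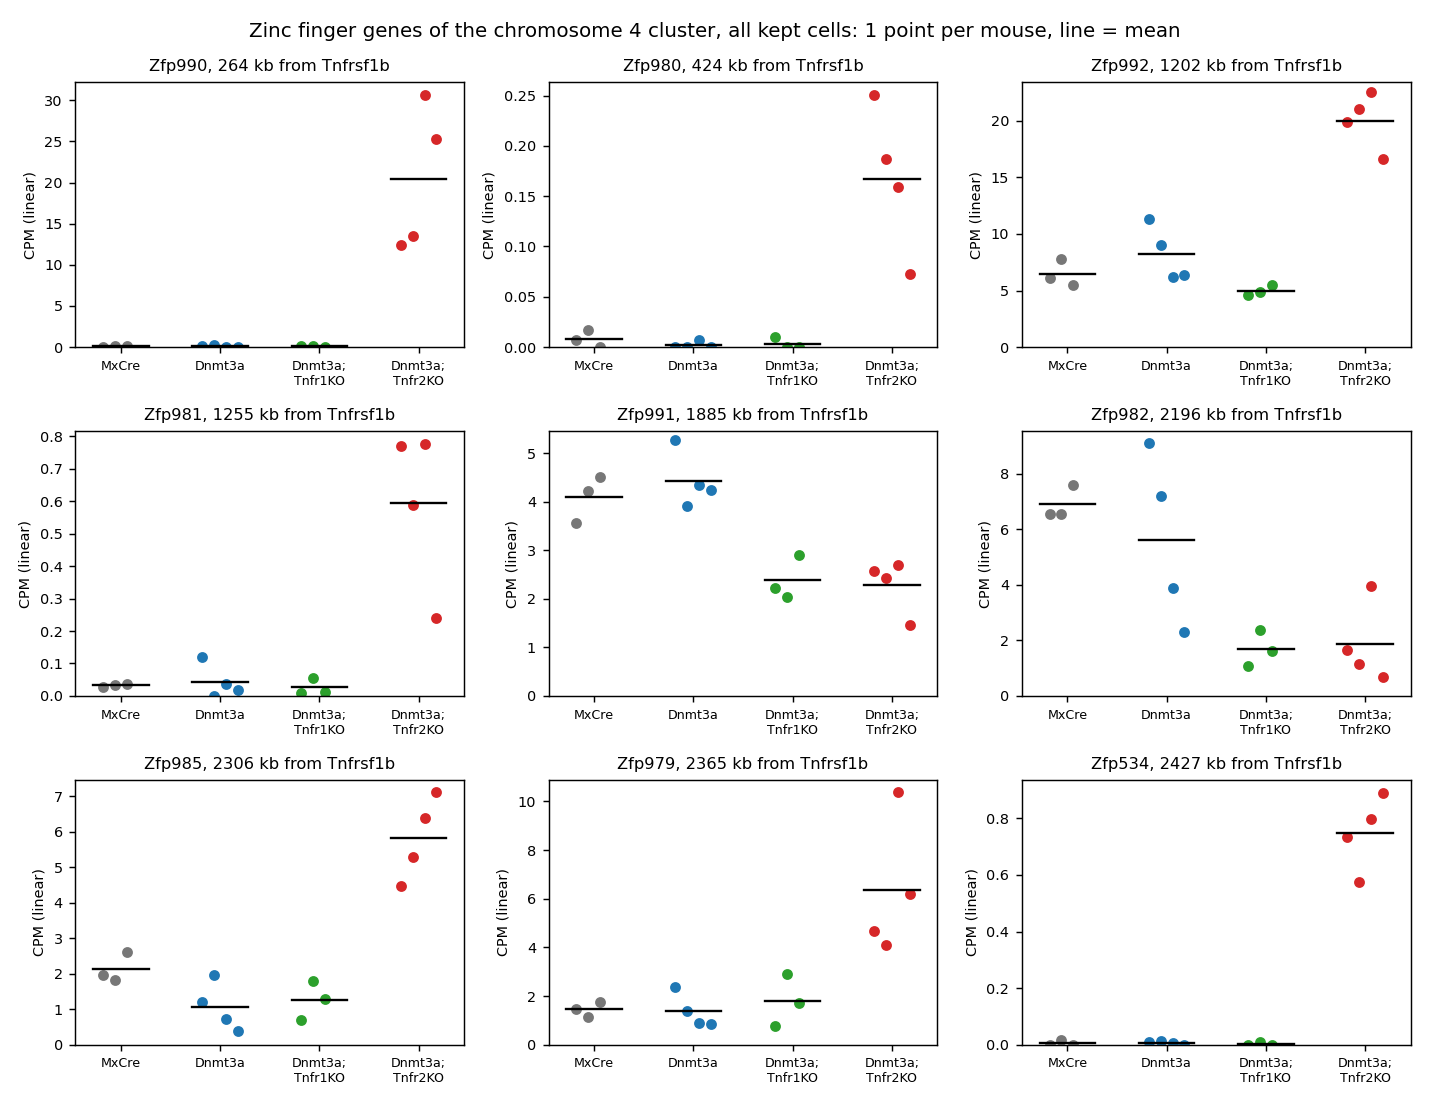
Level of each of the 9 genes in CPM (vertical axes, linear, each starting at 0) for the 4 genotypes, with 1 point per mouse and a line at the group mean. Dnmt3a;Tnfr2KO points lie above all others for 7 genes, while those of Zfp991 and Zfp982 lie among or below the rest.

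Against Dnmt3a, 7 members were thus higher in Dnmt3a;Tnfr2KO without overlap and 1, Zfp991, was lower without overlap, where 9.32% of all genes tested did not overlap in that comparison. The same 7 were higher without overlap against Tnfr1KO-labelled mice (5.61% of all genes) and against MxCre (17.7% of all genes), and against MxCre both Zfp991 and Zfp982 were lower. These comparisons share the Dnmt3a;Tnfr2KO libraries and were used to choose the genes, so nothing is read from the counts. Summed over the 9 genes, the mean level and its SD were 21.2 ± 1.25 CPM for the 3 MxCre mice, 20.9 ± 7.06 CPM for the 4 Dnmt3a mice, 12.2 ± 2.46 CPM for the 3 Tnfr1KO-labelled mice and 58.3 ± 14.3 CPM for the 4 Dnmt3a;Tnfr2KO mice. The makeup of the sum differed as well. Zfp990 gave 34.003% of the set's UMIs in Dnmt3a;Tnfr2KO and 0.449% to 0.667% in the other groups, and Zfp982 gave 3.01% against 32.6% in MxCre, 25.4% in Dnmt3a and 13.5% in Tnfr1KO-labelled mice. In sums over all sorted cells, fewer cells of a type and less RNA per cell cannot be told apart.

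The comparison of Dnmt3a with MxCre holds no Dnmt3a;Tnfr2KO library and asks whether Dnmt3a mutation alone went with a change in these genes. Both groups served as references when the genes were chosen, so here too the p-values are not independent of the choice. Of the 5 members that passed the cutoff in every library, 0 were called at an adjusted p below 0.05 by edgeR, where 2.24% of all genes tested were called. At an unadjusted p below 0.05 there was 1 of 5, against 23.5% of all genes. The other 4 members were rare in these 2 groups, with 26 and 43 UMIs for Zfp990, 9 and 18 for Zfp981, 2 and 1 for Zfp980 and 1 and 3 for Zfp534 in MxCre and Dnmt3a. Zfp980, Zfp534 and Zfp981 were in the test only through Dnmt3a;Tnfr2KO, and Zfp980 and Zfp534 could not be called at such counts. The gene with an unadjusted p below 0.05 was Zfp985, which averaged 1.07 ± 0.677 CPM (SD, n = 4) in Dnmt3a and 2.14 ± 0.415 CPM (n = 3) in MxCre, a log2 difference of -1.01 ± 0.43 (edgeR adjusted p = 0.177). It was called in 1 of 28 alternatives, that without Dnmt3a replicate 2, the Dnmt3a library with its highest level (log2 difference -1.47, edgeR adjusted p = 0.0418). The share of 2.24% does not apply to that call. Leaving out a library gave 0 to 1234 genes called in this comparison, against 351 in the main fit.

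The comparison of Tnfr1KO-labelled mice with Dnmt3a likewise holds no Dnmt3a;Tnfr2KO library, but its Dnmt3a libraries are those against which the genes were chosen. A gene listed as low beside Dnmt3a, such as Zfp991 or Zfp982, is more likely to lie below the same libraries again, so the p-values describe these libraries and support no finding. Again 0 of the 5 members measured in every library were called by edgeR, where 0.55% of all genes tested were called. Zfp990, Zfp981, Zfp980 and Zfp534 had 21, 7, 1 and 1 UMIs in the Tnfr1KO-labelled mice, so nothing is read from them here. At an unadjusted p below 0.05 there were 3 of 5, all lower, against 19.8% of all genes, and Zfp991 and Zfp992 were lower without overlap, as 8.15% of all genes were. Zfp991 averaged 2.39 ± 0.457 CPM (SD, n = 3) against 4.43 ± 0.582 CPM (n = 4), a log2 difference of -0.89 ± 0.22 (edgeR adjusted p = 0.0748). Zfp992 averaged 4.99 ± 0.470 against 8.21 ± 2.45 CPM, a log2 difference of -0.72 ± 0.21 (edgeR adjusted p = 0.107). Zfp982 averaged 1.69 ± 0.649 against 5.62 ± 3.09 CPM, a log2 difference of -1.73 ± 0.57 (edgeR adjusted p = 0.135). DESeq2 called these 3 genes on the same counts, with adjusted p of 0.00518, 0.0214 and 0.0181, so their calls depend on the tool. Zfp991 was also called by edgeR without Dnmt3a;Tnfr2KO replicate 4, a library outside the comparison that enters the shared estimate of spread (adjusted p = 0.0356). The share of 0.55% is that of the main edgeR fit and does not apply to these calls. Over the alternatives 2 to 931 of all genes were called, and 8 to 310 when a library was left out, against 86 in the main fit.

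To see whether these values followed the cell types, cells were sorted into lineages by marker genes and named "-like". Stem cell and multipotent progenitor (HSC/MPP)-like cells were led by Hlf, Mecom and Ly6a, megakaryocyte-like cells by Pf4, erythroid-like cells by Hba-a1 and Car1, basophil/mast-like cells by Prss34 and Ms4a2, granulocyte-like cells by Camp and Ngp, and monocyte-like cells by F13a1 and Irf8. Of the HSC/MPP marker list, Hlf, Mecom, Ly6a, Hoxa9, Procr and Adgrg1 were highest in HSC/MPP-like cells among these 6 lineages. Meis1 (209.5 against 183.5 CPM) and Mycn (48.52 against 32.3 CPM) were higher in megakaryocyte-like than in HSC/MPP-like cells. So were Mllt3 in erythroid-like cells (49.49 against 34.85 CPM) and Ifitm1 in basophil/mast-like cells (637.7 against 594.1 CPM). In each of these 6 lineages at least 4 of the 10 leading genes were its own markers and none belonged to another list. Cells were assigned by these same lists, so this describes the lineages and does not test their names. Together the 6 lineages held 43.6% to 77.5% of the kept cells of a library, and each lineage had at least 35 cells in every library.

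Each lineage was compared with the mean of the others within the same mice, a comparison that the choice of genes did not use. Zfp980, Zfp981 and Zfp534 had too few UMIs for it, which left 6 members. In the fit over all 14 mice, Zfp982 had the largest differences of these 6 in HSC/MPP-like, megakaryocyte-like, granulocyte-like and monocyte-like cells. In the 10 mice other than Dnmt3a;Tnfr2KO, the mean of Zfp985 ran from 3.28 CPM in HSC/MPP-like to 0.489 CPM in monocyte-like cells, a larger ratio than that of Zfp982, at 9.79 and 2.49 CPM. In MxCre, Zfp982 averaged 12.9 ± 1.08 CPM (SD, n = 3) in HSC/MPP-like and 11.4 ± 0.853 CPM in megakaryocyte-like cells, but 7.60 ± 1.46 CPM in erythroid-like, 5.61 ± 0.315 CPM in basophil/mast-like, 2.85 ± 0.551 CPM in granulocyte-like and 2.59 ± 0.1796 CPM in monocyte-like cells. Between MxCre mice the HSC/MPP-like and megakaryocyte-like values overlapped, as did those of granulocyte-like and monocyte-like cells. Within each MxCre mouse the HSC/MPP-like value was the higher (11.7 against 10.4, 13.2 against 12.1 and 13.7 against 11.6 CPM). Granulocyte-like values exceeded monocyte-like ones in replicates 1 and 2 but not in replicate 3 (2.22 against 2.44 CPM). Over all 14 mice, Zfp982 was higher in HSC/MPP-like (log2 difference 1.06 ± 0.09, edgeR adjusted p = 5.75e-17) and megakaryocyte-like cells (1.04 ± 0.11, adjusted p = 9.52e-14) and lower in granulocyte-like (-0.97 ± 0.10, adjusted p = 2.92e-14) and monocyte-like cells (-1.15 ± 0.10, adjusted p = 3.30e-16).

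In the fit pooled over 14 mice, the 5 members measured in every library were all higher in HSC/MPP-like cells, where 77.7% of all genes tested were called and 39.2% were called higher. After Zfp982, the differences were 0.97 ± 0.14 for Zfp985, 0.68 ± 0.13 for Zfp979, 0.32 ± 0.07 for Zfp992 and 0.25 ± 0.09 for Zfp991 on the log2 scale, and each held its call under every alternative run. Within Dnmt3a;Tnfr2KO, however, the HSC/MPP-like means of Zfp992 (19.1 CPM) and Zfp991 (2.28 CPM) were below those in granulocyte-like (22.8 and 2.48 CPM) and monocyte-like cells (21.5 and 2.35 CPM). That of Zfp985 (7.57 CPM) was below its erythroid-like (8.59 CPM) and megakaryocyte-like means (7.83 CPM). That of Zfp982 (3.26 CPM) was below its megakaryocyte-like mean (3.56 CPM), and only Zfp979 had its highest mean in HSC/MPP-like cells. In the other 10 mice Zfp992 and Zfp991 had their highest mean in HSC/MPP-like cells, at 9.13 and 4.499 CPM. Monocyte-like cells were lower for 3 of these 5 (78.3% of all genes were called and 39.5% were called lower), namely Zfp982, Zfp985 (-0.97 ± 0.14) and Zfp979 (-0.50 ± 0.13). In granulocyte-like cells, where 81.7% of all genes were called and 40.5% were called lower, Zfp982 and Zfp985 (-0.59 ± 0.14) were lower. Zfp990 is not counted among them, since its UMIs came almost wholly from the 4 Dnmt3a;Tnfr2KO mice. They had 1078, 2463 and 1229 UMIs of it in HSC/MPP-like, granulocyte-like and monocyte-like cells, and the other 10 mice had 21, 13 and 7. Its fitted differences of 0.53 ± 0.11, -0.34 ± 0.11 and -0.65 ± 0.12 in these lineages thus describe Dnmt3a;Tnfr2KO.

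Other lineage differences were smaller or less stable. In granulocyte-like cells Zfp992 was higher by 0.16 ± 0.06 on the log2 scale, where 41.2% of all genes were called higher. Megakaryocyte-like cells (69.3% of all genes called) had more Zfp985 and less Zfp992 and Zfp991, and erythroid-like cells (81.5% called) had more Zfp982 and less Zfp992 and Zfp991. Each of these 7 calls was lost in at least 1 alternative, most often those of Zfp991 (10 of 18 in either lineage) and of Zfp982 in erythroid-like cells (9 of 18). No member was called in basophil/mast-like cells, where 52.9% of all genes were called and the 6 unadjusted p-values ran from 0.0590 to 0.938.

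**Figure D2:**
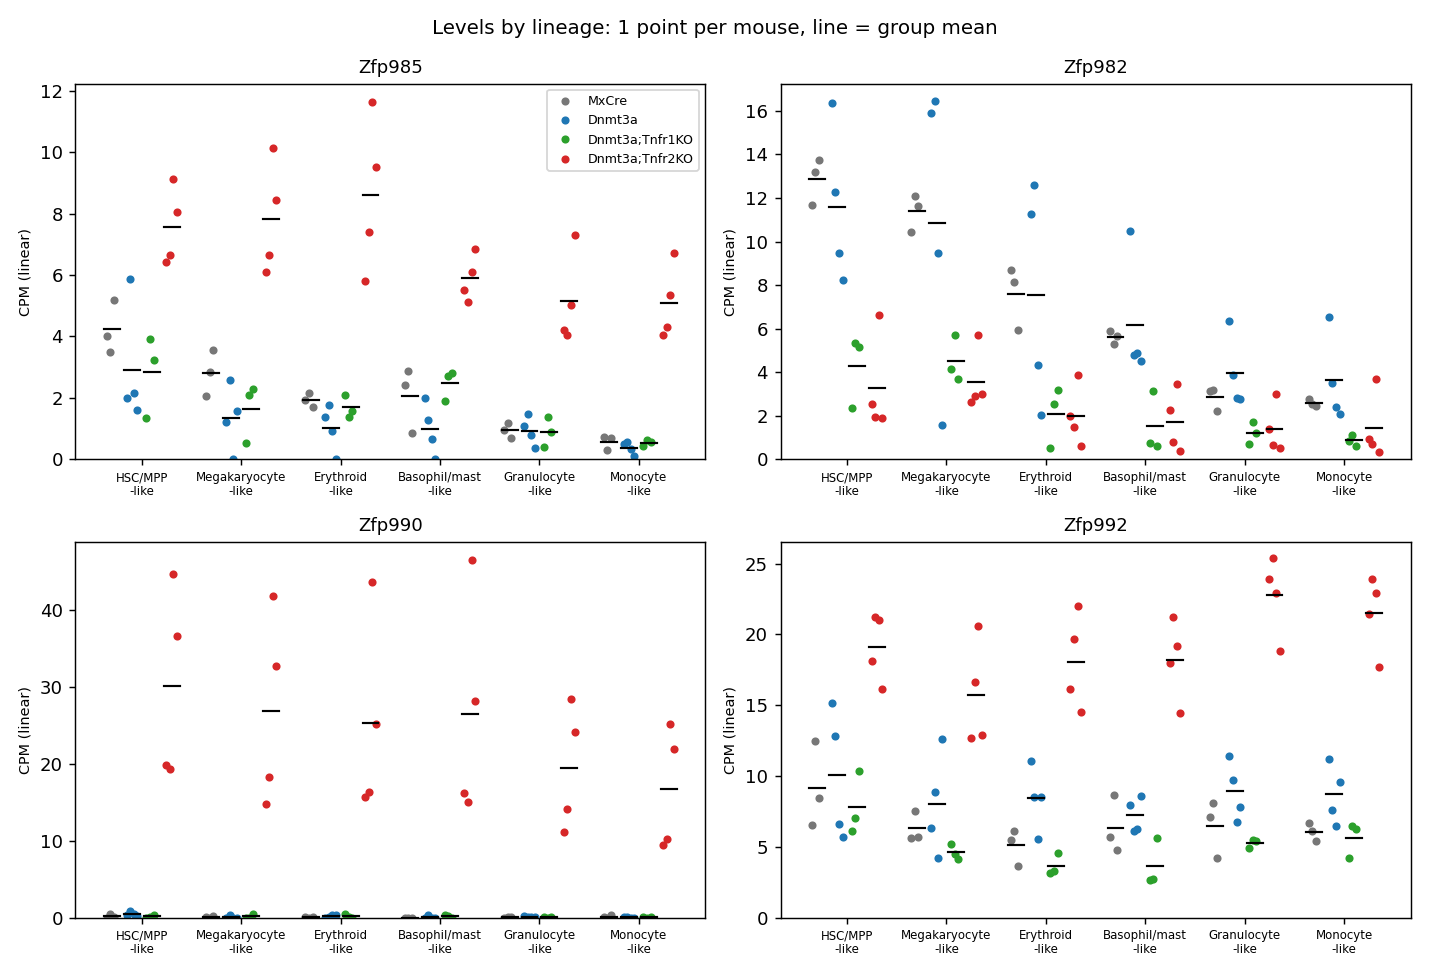
Levels of Zfp985, Zfp982, Zfp990 and Zfp992 in CPM (vertical axes, linear, each starting at 0) in 6 marker-defined lineages, with 1 point per mouse, colours for the 4 genotypes and a line at each group mean. Zfp985 stays between 4.05 and 11.6 CPM in every lineage of Dnmt3a;Tnfr2KO and its mean is lower in monocyte-like than in HSC/MPP-like cells both there (5.10 against 7.57 CPM) and in the other 10 mice (0.489 against 3.28 CPM), and Zfp982 is lowest in granulocyte-like and monocyte-like cells.

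The levels in Dnmt3a;Tnfr2KO are described by lineage next, without a test, since the genes were chosen from their difference in these mice. A test of the interaction of lineage with Dnmt3a;Tnfr2KO called 0.0743% of all genes tested (9 of 12120, edgeR), and nothing is read from it for the members. In monocyte-like cells Zfp985 measured 4.06, 4.30, 5.35 and 6.71 CPM in Dnmt3a;Tnfr2KO and 0.112 to 0.733 CPM in the other 10 mice. The means, 5.10 and 0.489 CPM, differed 10.4-fold. In HSC/MPP-like cells it measured 6.44, 6.66, 9.12 and 8.05 CPM in Dnmt3a;Tnfr2KO and 1.36 to 5.87 CPM in the others, and the means of 7.57 and 3.28 CPM differed 2.30-fold. Groups did not overlap in either lineage, and the share of all genes without overlap there was not computed. The ratio was 5.76 in erythroid-like, 5.54 in granulocyte-like, 4.18 in megakaryocyte-like and 3.36 in basophil/mast-like cells. On the linear scale the difference of means was 4.28 CPM in HSC/MPP-like and 4.62 CPM in monocyte-like cells and ran from 4.14 to 7.10 CPM over the 6 lineages. The mean level in Dnmt3a;Tnfr2KO spanned 5.10 to 8.59 CPM between lineages and that in the other groups 0.489 to 3.28 CPM.

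Zfp990 was higher in Dnmt3a;Tnfr2KO in each lineage, with means of 30.1 CPM in HSC/MPP-like, 26.9 CPM in megakaryocyte-like, 26.5 CPM in basophil/mast-like, 25.3 CPM in erythroid-like, 19.5 CPM in granulocyte-like and 16.7 CPM in monocyte-like cells, against 0.0643 to 0.281 CPM in the other 10 mice. The split between its replicates was also seen inside lineages. In HSC/MPP-like cells Dnmt3a;Tnfr2KO replicates 1 to 4 had 19.9, 19.4, 44.7 and 36.6 CPM, and in monocyte-like cells 9.48, 10.2, 25.2 and 22.0 CPM. Zfp992 had its highest Dnmt3a;Tnfr2KO means in granulocyte-like (22.8 CPM) and monocyte-like cells (21.5 CPM) and its lowest in megakaryocyte-like cells (15.7 CPM), 2.10 to 3.21 times the other groups. Zfp979 was 3.09 to 5.87 times higher in the 6 lineages. Zfp991 and Zfp982 had means 1.49 to 1.97 times and 1.74 to 3.01 times below those of the other 10 mice pooled. Beside the Tnfr1KO-labelled mice alone, each was higher in Dnmt3a;Tnfr2KO in 3 of the 6 lineages. For Zfp982 the means were 1.39 against 1.22 CPM in granulocyte-like, 1.43 against 0.868 CPM in monocyte-like and 1.73 against 1.51 CPM in basophil/mast-like cells. For Zfp991 they were 2.197 against 1.34 CPM in erythroid-like, 2.48 against 2.46 CPM in granulocyte-like and 2.29 against 2.201 CPM in basophil/mast-like cells. The groups overlapped in all of these. For Zfp982, Dnmt3a;Tnfr2KO replicate 3 raised each of these means, with 3.01, 3.71 and 3.48 CPM in the order given. The other Dnmt3a;Tnfr2KO replicates had at most 1.39, 0.952 and 2.25 CPM.

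Zfp982 was highest in HSC/MPP-like and megakaryocyte-like cells, so the shares of these cells are given beside its level over all cells. HSC/MPP-like cells made up 14.6%, 11.5%, 8.65% and 2.47% of kept cells in Dnmt3a replicates 1 to 4, where Zfp982 had 9.11, 7.19, 3.89 and 2.30 CPM. They made up 12.6% to 27.1% in MxCre, 3.45% to 9.58% in Tnfr1KO-labelled mice and 7.82% to 12.3% in Dnmt3a;Tnfr2KO, where Zfp982 had 0.681 to 3.97 CPM. Megakaryocyte-like cells made up 6.44%, 9.87%, 1.02% and 0.646% in Dnmt3a replicates 1 to 4, 9.71% to 19.4% in MxCre, 2.78% to 4.89% in Tnfr1KO-labelled mice and 2.33% to 7.52% in Dnmt3a;Tnfr2KO. Both shares and Zfp982 were lower in Dnmt3a replicates 3 and 4 than in 1 and 2, and the shares in Dnmt3a;Tnfr2KO lay within the range of Dnmt3a. Cells with B-lymphoid markers made up 0.408% to 38.6% of kept cells in Dnmt3a, most of all in replicate 4, and 0.0656% to 0.186% in Dnmt3a;Tnfr2KO. The part of these shares in the differences over all cells was not tested. Within HSC/MPP-like cells alone, Zfp982 stood at 11.7, 13.2 and 13.7 CPM in MxCre, 16.4, 12.3, 9.46 and 8.25 CPM in Dnmt3a, 2.38, 5.36 and 5.17 CPM in Tnfr1KO-labelled mice and 2.55, 1.95, 6.62 and 1.90 CPM in Dnmt3a;Tnfr2KO. The 7 mice of the first 2 genotypes were therefore all above the 7 of the last 2 within this lineage, as also in basophil/mast-like cells. In megakaryocyte-like, erythroid-like, granulocyte-like and monocyte-like cells the same split of Zfp982 values overlapped. It was formed after the values were seen, and how many of all genes divide this way was not computed. Against Dnmt3a, the Tnfr1KO-labelled mice differed by -1.39 on the log2 scale in HSC/MPP-like cells (edgeR adjusted p = 0.0876) and by -1.39 to -2.09 over the 6 lineages, with adjusted p-values of 0.0876 to 0.346. None passed the threshold.

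The members measured in every library, Zfp982 among them, were compared inside lineages in the same way, in fits added after the data had been seen. For Tnfr1KO-labelled mice against Dnmt3a, 1 of 30 fits of these 5 members in 6 lineages was called, that of Zfp991 in granulocyte-like cells (log2 difference -0.998 ± 0.226, edgeR adjusted p = 0.0381), where 2.43% of all genes were called. The share was 0.942% in HSC/MPP-like, 1.19% in monocyte-like, 0.227% in megakaryocyte-like, 0.0183% in erythroid-like and 1.2% in basophil/mast-like cells. At an unadjusted p below 0.05 there were 19 of 30, 16 of them lower. The shares of all genes at that p were 15.8% in HSC/MPP-like, 21.4% in granulocyte-like, 19.9% in monocyte-like, 11% in megakaryocyte-like, 12.6% in erythroid-like and 14.6% in basophil/mast-like cells, and the fits share mice and genes. Zfp991, Zfp992 and Zfp982 had negative differences in all 6 lineages, from -1.73 to -0.69 for Zfp991 and from -1.21 to -0.43 for Zfp992. Zfp979 and Zfp985 had positive differences in 5 of the 6. Those higher at an unadjusted p below 0.05 were Zfp985 in basophil/mast-like cells (1.67) and Zfp979 in HSC/MPP-like (0.84) and megakaryocyte-like cells (1.15). For Dnmt3a against MxCre 0 of 30 such fits were called by edgeR and 5 had an unadjusted p below 0.05, 2 of them lower. Of all genes, 8.03% were called in HSC/MPP-like, 2.85% in granulocyte-like, 1.13% in monocyte-like, 0.502% in megakaryocyte-like, 0% in erythroid-like and 1.83% in basophil/mast-like cells. At the unadjusted p the shares were 24.8%, 20.8%, 18.9%, 16.7%, 17.6% and 17% in the same order. Zfp985 had negative differences in all 6 lineages there (-1.44 to -0.14, adjusted p 0.193 to 0.907). Zfp992 had positive differences in all 6 (0.23 to 0.77, edgeR adjusted p 0.200 to 0.735). Its unadjusted p was below 0.05 in granulocyte-like, monocyte-like and erythroid-like cells. Zfp979, Zfp982 and Zfp991 had both signs. Zfp979 averaged 1.68 ± 0.623 CPM (SD, n = 4) in HSC/MPP-like cells of Dnmt3a and 3.33 ± 0.618 CPM (n = 3) in those of MxCre, without overlap. Over all cells 19% of all genes did not overlap in this comparison, and the share within the lineage was not computed. The log2 difference of Zfp979 was -0.94 ± 0.34 (edgeR adjusted p = 0.0965). In granulocyte-like cells the difference had the opposite sign (1.06, adjusted p = 0.263), and it was not tested whether the 2 differences differ.

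The cluster holds further zinc finger genes. A list of 28 names was checked, of which 8 are older names of members, 3 lie on other chromosomes and 10 were found on chromosome 4 in the files, 5 of them with enough counts to test. None of these 5 was called in any of the 5 comparisons between genotypes (0 of 5 in each by edgeR). Of all genes, 0.856% were called in Dnmt3a;Tnfr2KO against Dnmt3a, 0.192% against Tnfr1KO-labelled mice and 0.473% against MxCre. For Zfp993, which overlaps Zfp981, the means were 1.47 ± 0.459 CPM for MxCre, 0.420 ± 0.123 CPM for Dnmt3a, 1.41 ± 0.161 CPM for Tnfr1KO-labelled mice and 1.18 ± 0.857 CPM for Dnmt3a;Tnfr2KO (SD). It was lower in Dnmt3a than in MxCre without overlap (log2 difference -1.81, edgeR adjusted p = 0.0621, where 19% of all genes did not overlap). Tnfr1KO-labelled mice, at 1.24 to 1.57 CPM, lay above Dnmt3a, at 0.275 to 0.543 CPM, where 14.3% of all genes did not overlap. Only Zfp993, Gm13212 and Zfp984 averaged 1 CPM or more in Dnmt3a;Tnfr2KO or Dnmt3a. Zfp988 had a larger log2 difference between these groups (1.498) at 0.149 and 0.0524 CPM. Gm13212, between Zfp990 and Zfp980, averaged 11.5 ± 0.610, 8.13 ± 0.479, 8.03 ± 0.657 and 9.11 ± 1.34 CPM in the order of groups given for Zfp993. Zfp984, beyond Zfp534, averaged 15.1 ± 0.517, 13.3 ± 2.60, 11.96 ± 2.51 and 10.6 ± 1.23 CPM. Gm13212 was lower in Dnmt3a than in MxCre without overlap (log2 difference -0.50 ± 0.12, edgeR adjusted p = 0.0516). In Dnmt3a;Tnfr2KO both Gm13212 and Zfp984 overlapped Dnmt3a and lay below MxCre without overlap (log2 differences -0.33 and -0.51, edgeR adjusted p = 0.238 and 0.204). So did Zfp987, at no more than 0.116 CPM beside at least 0.135 CPM in MxCre (log2 difference -1.14, edgeR adjusted p = 0.432), which makes 3 of 5 where 17.7% of all genes did not overlap.

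Among the 5 cluster genes with few counts, 3 with nearly all their UMIs in Dnmt3a;Tnfr2KO are named here, after their values were seen. Rex2 had 44 UMIs in the 4 Dnmt3a;Tnfr2KO libraries and 0 in the other 10. With those 10 set to a floor of 3 UMIs its ratio was 26.5. That figure takes the 44 UMIs as exact, so it is no lower bound, and the choice by these values makes it description only. Zfp978, which overlaps Zfp991, had 8 and 0 UMIs, a ratio of 4.82 by the same floor and with the same limits. Zfp986 had 25 and 4 UMIs.

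Other genes around Tnfrsf1b also differed. Within 3 Mb of Tnfrsf1b on chromosome 4, leaving out the 9 members, 5 of 27 genes tested (18.5%) were called in Dnmt3a;Tnfr2KO against Dnmt3a, Tnfrsf1b among them. The 27 include the 5 cluster genes tested above and another gene with a Zfp symbol, Zfp933, none of which was called. The share was 8.33% of 156 genes at 3 to 10 Mb, 0.723% of 692 genes farther along chromosome 4 and 0.669% of 13744 genes on other chromosomes. Of a list of 35 neighbouring genes, 30 were tested, of which 3 were higher and 1 lower. Among list genes that averaged 1 CPM or more in Dnmt3a;Tnfr2KO, in Dnmt3a or in both, the largest differences belonged to Fbxo44, a subunit of a ubiquitin ligase (0.114 ± 0.0285 against 1.13 ± 0.285 CPM), Angptl7, a secreted angiopoietin-like protein (2.17 ± 0.555 against 0.427 ± 0.305 CPM), and Dhrs3, a retinal reductase (36.9 ± 9.12 against 17.4 ± 5.56 CPM; SD, n = 4 each). Thus both directions occurred outside the zinc finger genes too. In Tnfr1KO-labelled mice against Dnmt3a, 0 of the same 27 genes within 3 Mb were called and 0.509% of genes on other chromosomes were.

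**Figure D3:**
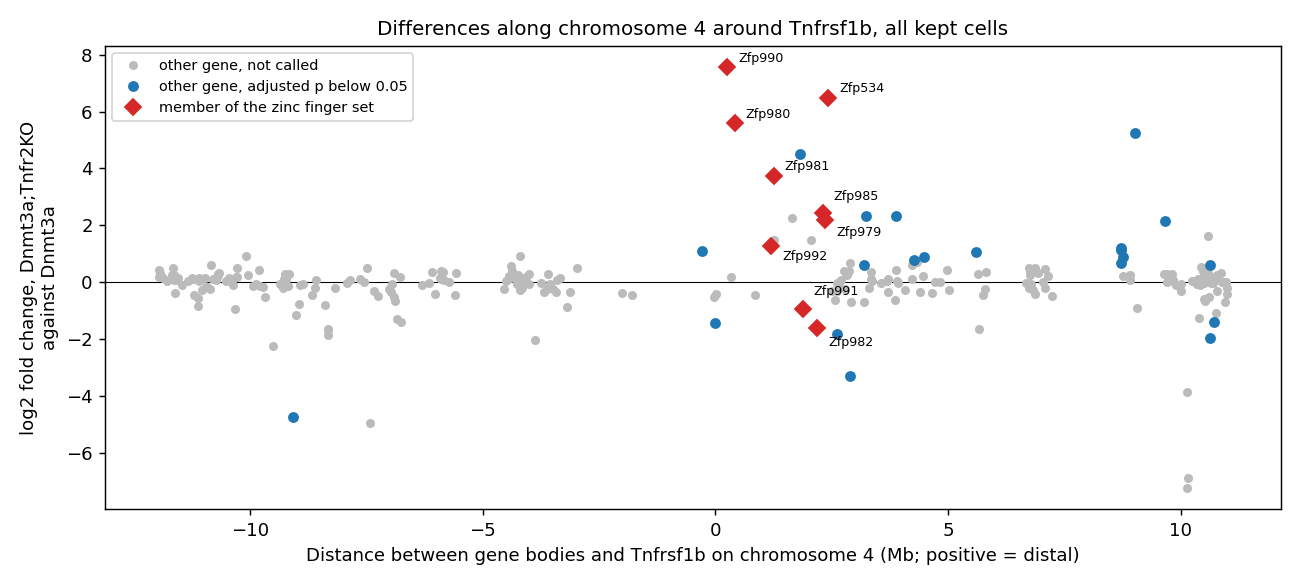
Log2 fold change of Dnmt3a;Tnfr2KO against Dnmt3a (vertical axis) for genes tested around Tnfrsf1b on chromosome 4, by distance from Tnfrsf1b in Mb (horizontal axis). Diamonds mark the 9 zinc finger genes, from -1.60 for Zfp982 to 7.57 for Zfp990, and blue points mark other genes with an adjusted p below 0.05; fitted values of Zfp980 and Zfp534 rest on 1 to 3 UMIs in Dnmt3a.

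KRAB zinc finger proteins act through co-repressors, whose genes were examined as a list. Of 24 co-repressor and heterochromatin genes, such as Trim28, Setdb1 and the heterochromatin protein gene Cbx5, 0 were called in any comparison that involves Dnmt3a;Tnfr2KO or Tnfr1KO-labelled mice. Of all genes, 0.192% to 0.856% were called in these comparisons. Against Dnmt3a, 6 were lower and 1 higher without overlap in Tnfr1KO-labelled mice, where 14.3% of all genes did not overlap and 8.15% were lower. In Dnmt3a;Tnfr2KO 3 were lower and 1 higher without overlap, where 9.32% of all genes did not overlap. In Dnmt3a against MxCre 2 of 24 were called, both higher, where 2.24% of all genes were called. They were Morc3, a chromatin ATPase (79.6 ± 11.9 against 52.0 ± 4.69 CPM, log2 difference 0.61 ± 0.13, edgeR adjusted p = 0.0420), and Atrx, a chromatin remodeller (242 ± 55.1 against 153 ± 4.80 CPM, log2 difference 0.66 ± 0.15, edgeR adjusted p = 0.0473). Of 18 KRAB zinc finger genes listed from outside this cluster, 17 were tested and 0 were called in any of the 5 comparisons, where 0.192% to 2.24% of all genes were. Against Dnmt3a, 7 of the 17 were lower and 0 higher without overlap in Tnfr1KO-labelled mice, by the shares of all genes given above. In Dnmt3a;Tnfr2KO 5 were lower and 1 higher without overlap. The median log2 difference of the 17 was 0.28 for Dnmt3a against MxCre and -0.32 for both Tnfr1KO-labelled mice and Dnmt3a;Tnfr2KO against Dnmt3a. For Dnmt3a;Tnfr2KO it was 0.07 against Tnfr1KO-labelled mice and -0.03 against MxCre. The medians of all genes lay between -0.05 and 0.03 in these comparisons, which share groups.

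Several genes had a level over the 14 libraries that was like the summed level of the members. Among 11579 genes averaging 1 CPM or more, those nearest included Clcn6 (Pearson r = 0.93), Pusl1 (-0.91), Errfi1 (0.89) and Lrrc47 (0.88), which lie on chromosome 4 at 2757.4 to 10642 kb from Tnfrsf1b. Gm3604 (0.93) lies on chromosome 13, and no position was matched for CAAA01118383.1 (-0.93) and Gm13166 (0.93). The libraries fall into Dnmt3a;Tnfr2KO and the rest, so these values describe that split and carry no p. Pusl1, for example, had 4.15 to 7.26 CPM in Dnmt3a;Tnfr2KO and 18.7 to 27.7 CPM elsewhere.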

How the data were processed

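The deposited files hold UMI counts per gene and cell barcode, which the authors made with Cell Ranger 6.0.0 after bcl2fastq 2.20.0.422 on mm10/GRCm38, per the submitters' processing notes. How that counting treated reads matching several gene copies, and any cell filter before deposit, are not given in the sources used here. The members and gene lists were chosen with earlier results of these data known.

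Barcodes below 1000 UMIs, below 500 detected genes, or with 10% or more of their UMIs from mitochondrial genes were dropped, and predicted doublets (0.8% per 1000 cells, 31 to 480 cells per library) were removed with a nearest-neighbour score in Python 3.11.15 with scikit-learn 1.9.0. Counts were summed per library, since cells of a mouse are not replicates. edgeR 4.0.16 in R 4.3.3 fitted all 4 genotypes together (filterByExpr, TMM scaling, quasi-likelihood F test, Benjamini-Hochberg adjustment over 15648 genes, threshold 0.05). CPM values use the TMM-scaled library sizes, and the cutoff of filterByExpr was 0.0937 CPM. The test scripts were tested on simulated data.

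Lineages came from z-scored means of marker lists (a score of at least 0.5, leading the next by 0.25), a rule set after the cells had been seen, and 21188 of 66895 kept cells stayed unassigned. The lineages fitted had at least 20 cells in every library. The plan asked for this in only part of the libraries, a rule that cells with dendritic markers also met, but they were not fitted. Lineage tests ran on sums per library and lineage with a library block, over 12120 genes. The planned interaction of lineage with Dnmt3a;Tnfr2KO was fitted, but gives no result for the members, which were chosen on that difference. Named genes were all members, the targeted genes, the 3 genes of each neighbour list with the largest Dnmt3a;Tnfr2KO difference from Dnmt3a among those averaging 1 CPM or more in either group, the called genes of the co-repressor and other KRAB lists, and the 8 genes most like the summed members, of which 1 is not reported here. Alternatives were DESeq2 1.42.0, other filters and scalings, a replicate block, leaving out each library and, added after the data were seen, single lineages. No sequence of these genes was used here.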

Additional observations from a re-analysis of the deposited data

Results flagged for a closer look

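A single value stood apart from the others of its group by Dixon's test (critical value 0.829), which was applied to 18 groups of 4 libraries and marks about 1 in 20 groups by chance. It was Zfp980 in Dnmt3a, at 0.00715 CPM in replicate 3 and 0 in the other 3 libraries. The value rests on 1 UMI.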

How the results depend on the processing

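Of 28 alternatives, 3 called a member in Tnfr1KO-labelled mice against Dnmt3a, where edgeR on all cells called 0. DESeq2 called 3, granulocyte-like cells alone gave 1, and leaving out a library gave 0 to 1. In Dnmt3a against MxCre, leaving out a library gave 0 to 1 members called. The number of all genes called varied widely, at 351 (0 to 1518) for Dnmt3a against MxCre, 86 (2 to 931) for Tnfr1KO-labelled mice against Dnmt3a, and 134 (9 to 1095), 30 (5 to 100) and 74 (11 to 417) for Dnmt3a;Tnfr2KO against Dnmt3a, Tnfr1KO-labelled mice and MxCre. The interaction test called 9 genes (5 to 16). Of 36 pairs of member and lineage, 21 (16 to 21) were called, 3 of them of Zfp990. Between 52.9% and 81.7% of all genes were called in a lineage.

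Directions changed only for differences that were not called, and the cause was not tested. In Dnmt3a against MxCre (log2), Zfp979 moved from -0.09 to 1.06 in granulocyte-like, 0.49 in monocyte-like, 1.03 in erythroid-like and 0.47 in basophil/mast-like cells. Zfp982 moved from -0.30 to 0.45 in granulocyte-like, 0.50 in monocyte-like, 0.23 in megakaryocyte-like, 0.10 in erythroid-like and 0.028 in basophil/mast-like cells. Zfp990 moved from 0.18 to -0.017 with doublets kept and to -1.86 in monocyte-like cells, and Zfp991 from 0.12 to -0.0102 in HSC/MPP-like and -0.21 in megakaryocyte-like cells. In Tnfr1KO-labelled mice against Dnmt3a, Zfp979 moved from 0.39 to -0.048 in basophil/mast-like cells, Zfp985 from 0.25 to -0.034 in granulocyte-like cells, and Zfp990 from -0.45 to 0.28 in monocyte-like and 1.46 in basophil/mast-like cells. Leaving out a library, the first comparison gave -0.0077 to 2.85 for Zfp534, -0.49 to 0.083 for Zfp979, -0.68 to 0.76 for Zfp981 and -0.35 to 0.47 for Zfp990. The second gave -0.15 to 0.78 for Zfp979, -1.55 to 2.01 for Zfp980, -1.82 to 0.39 for Zfp981, -0.0904 to 0.71 for Zfp985 and -0.70 to 0.083 for Zfp990.

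No pairing of mice by replicate number was seen: deviations from the group means correlated at a median of 0.04 over 19 same-numbered pairs and -0.03 over 54 others. Single pairs ran from -0.41 to 0.38 and from -0.46 to 0.44, so this check cannot decide whether the numbers pair mice. With a replicate block, the Dnmt3a against MxCre difference was 0.016 for Zfp979 and 0.014 for Zfp982, and no member was called in either comparison. The block moved the genes called from 351 to 140 in that comparison and from 86 to 36 in the other. Members under 0.1 CPM in a group rest on few UMIs, and the lineage fits of single groups on as few as 35 cells.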
